A study of Danio rerio with 15 samples.

Results

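Radial glia of the larval head were set against quiescent radial glia of the adult telencephalon, transcript by transcript. This comparison took 6 of the 15 samples of the series, the 3 wild-type larval libraries and the 3 adult libraries labelled quiescent radial glia (qRG), and joined their counts on the identifiers of 30279 transcripts. Each larval library came from eGFP-positive cells of 15 pooled heads without eyes, taken at 7 dpf from notch3+/+ siblings in the notch3fh332 line carrying the gfap:egfp transgene. Each adult library came from RFP-positive, GFP-negative cells of 20 pooled telencephali of 3-month-old, wild-type fish carrying her4:drfp and mcm5:egfp. The larval reads were 100 bp long and the adult reads 50 bp, and all libraries were primed with oligo(dT). Age therefore changed together with tissue (head against telencephalon), fish line, reporter gate, read length and sequencing run. The adult gate alone left out cells positive for mcm5:egfp, so proliferative state changed with age too. None of these can be told apart in any value below. The 3 larval notch3-/- libraries of the series came from mutant siblings of the wild-type larvae. They are given beside the results as further larval values against the same adult libraries. The paper sorted each genotype in 3 batches and reports correcting for batch effects, so the mutant libraries cannot be taken as an independent set.

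Radial glia are the neural stem cells of the zebrafish brain. They line the ventricles, express glial genes such as gfap and the Notch target her4, and generate neurons either directly or through dividing progenitors. In the larva many of them still divide, whereas in the adult pallium most are held in quiescence, a reversible arrest that Notch signalling maintains, and the mcm5 reporter used in the adult gate marks the cells that have left it. The identifiers carry no gene names in the deposited tables and 0 of them matched the name tables at hand, so neither the cell type nor the state could be checked against marker genes. Transcripts are therefore described by position in Zv9, structure and level, and no transcript is given a function.

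The larval libraries held 33625571, 31951519 and 17832652 counts and the adult libraries 48558669, 45607676 and 49601032. The 2 groups stood far apart. The first principal component held 89.7% of the variance of the 500 most variable transcripts and separated all adult from all larval libraries, mutants included, while the second held 3.46%. Across transcripts, log2 levels correlated at 0.907 to 0.923 between wild-type larval libraries, at 0.935 to 0.955 between adult libraries and at 0.75 to 0.82 between a larval and an adult library. The 10 most abundant transcripts took 5.03% to 6.46% of the counts of a larval library and 7.82% to 11.1% of those of an adult library, the highest being adult replicate 1.

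Of the 30279 transcripts, 24870 had enough counts to be tested and 7135 of these (28.7%) differed at an adjusted p under 0.05 in the quasi-likelihood test of edgeR. Transcripts higher in larvae numbered 3464 (13.9%) and transcripts higher in adults 3671 (14.8%). The libraries of the 2 groups did not overlap for 11792 transcripts (47.4% of those tested), 5286 (21.3%) of them higher in larvae and 6506 (26.2%) higher in adults, and 7073 of the called transcripts were among them. The median log2 fold change over all tested transcripts, larval minus adult, was -0.17, and the middle 50% lay between -1.10 and 0.65. The p-values rest on the spread between 3 pools of animals in each group. The side with more calls depended on the scaling: with the size factors of DESeq2, 3623 were higher in larvae and 3489 in adults. It also turned without larval replicate 1 (2971 and 2862) and without adult replicate 1 (2980 and 2572).

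The larger the fitted difference, the more often the adult level was the higher one. Past 2-fold, 2864 called transcripts (11.5% of those tested) were higher in larvae and 3371 (13.6%) in adults. Past 4-fold, the counts were 1279 (5.14%) and 2132 (8.57%). Past 8-fold, they were 605 (2.43%) and 1362 (5.48%), and past 32-fold 131 (0.527%) and 545 (2.19%). Every one of the 545 had non-overlapping groups, as had 130 of the 131. So had 7073 of all 7135 called transcripts, so this followed largely from the call itself. The transcripts past 32-fold ranged from low to high levels. In the lowest of 10 bins by mean level (0.166 to 0.569 CPM) lay 80 of the 545 and 3 of the 131. Where a group held 0 counts, the size of the fitted fold was not measured. A 20-exon transcript at chr25:4964092-4981370 with 0 larval counts had a log2 fold change of -8.29. Its adult level was at least 9.04-fold above 3 counts per larval library. Among all 30279 transcripts, 573 had 0 counts in the larval libraries and reads in each adult one, against 10 the other way. How many of these passed 32-fold was not counted. In adults the median level of the 545 was 29.2 CPM (counts scaled to the same library total by TMM). Their median larval level was 0.282 CPM, and 172 of them exceeded 100 CPM in adults. The 131 had a median larval level of 49.6 CPM against 0.638 CPM in adults, and 36 exceeded 100 CPM.

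**Figure D1:**
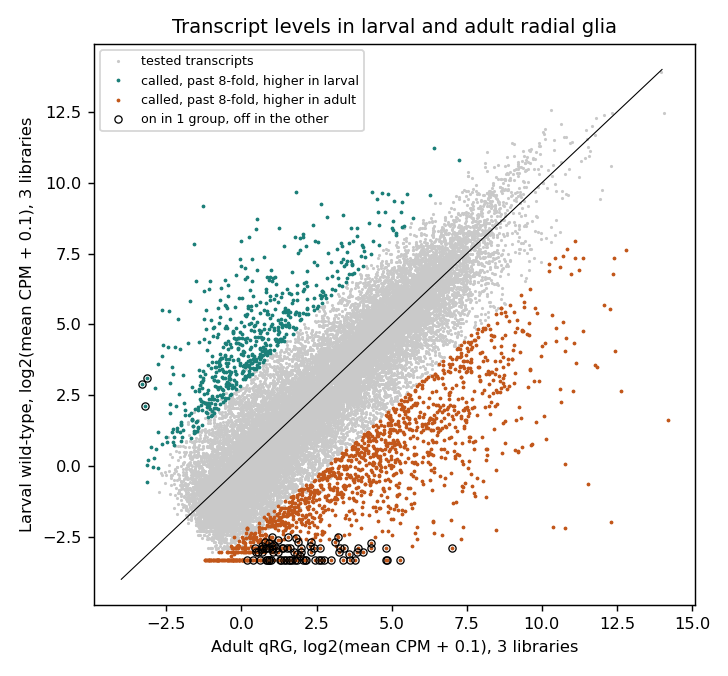
Mean level of each tested transcript in the 3 adult qRG libraries (x axis) and the 3 larval wild-type libraries (y axis), as log2(CPM + 0.1), with the line of equal levels. Coloured points are the called transcripts past 8-fold (605 higher in larvae, 1362 higher in adults), and open circles mark the 85 transcripts on in a single group, of which 82 lie along the lower edge.

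**Figure D2:**
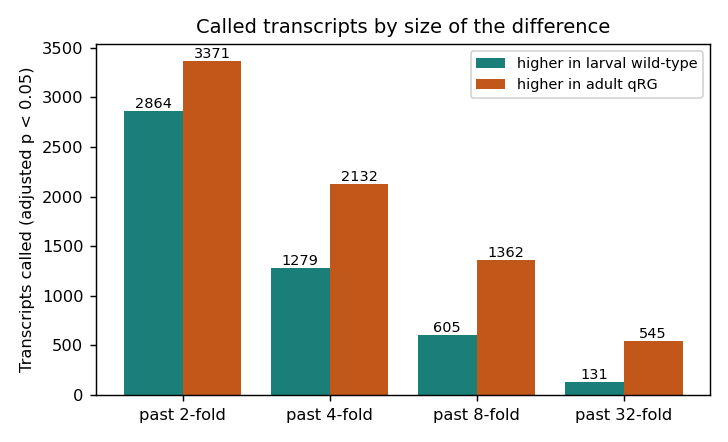
Number of called transcripts past 2-fold, 4-fold, 8-fold and 32-fold (x axis) that were higher in larval wild-type or in adult qRG libraries. The adult bars are the taller in each class, from 3371 against 2864 past 2-fold to 545 against 131 past 32-fold.

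The 2 most abundant transcripts past 32-fold in each direction were picked after their values were seen and carry no independent weight. In adults the highest was a 7-exon transcript at chr14:3122605-3136493, with 29504, 13649 and 12936 CPM in replicates 1, 2 and 3 against 2.42, 3.18 and 3.41 CPM in the larval libraries (log2 fold change -12.61, SE 0.59, adjusted p = 4.56e-06 by edgeR). The notch3-/- larvae had 3.00, 2.67 and 4.53 CPM of it. Next came a 6-exon transcript at chr5:39437409-39439477, with 11020, 4741 and 5803 CPM in adults against 32.3, 535 and 19.3 CPM in larvae (log2 fold change -5.20, SE 1.18, adjusted p = 0.00844 by edgeR). The larval libraries were alike and low for the first, whereas replicate 2 stood far above the other larval libraries for the second. In larvae the highest was a 9-exon transcript at chr6:39239362-39243891, with 495, 1744 and 231 CPM against 3.76, 2.44 and 3.98 CPM in adults (log2 fold change 7.92, SE 0.80, adjusted p = 0.000101 by edgeR). It was followed by a single-exon transcript at chr15:32801330-32803591, with 957, 752 and 754 CPM in larvae against 20.8, 15.9 and 23.6 CPM in adults (log2 fold change 5.35, SE 0.28, adjusted p = 7.01e-06 by edgeR). Replicate 2 was again the highest larval library for the former, while the larval libraries were close to each other for the latter.

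Single libraries stood out for many of the large differences. Larval replicate 2 exceeded both other wild-type libraries by more than 2-fold for 262 of the 605 transcripts past 8-fold in larvae (43.3%), against 9.43% of all tested transcripts. Among the notch3-/- libraries, replicate 2 exceeded both others by more than 2-fold for 198 of the same 605 (32.7%). The share over all tested transcripts was not taken for the notch3-/- libraries. Adult replicate 1 was the highest adult library for 1072 of the 1362 transcripts past 8-fold in adults (78.7%), against 40.8% of all tested transcripts. It exceeded both other adult libraries by more than 2-fold for 312 of the 1362 (22.9%), against 5.0% of all tested transcripts. Larval replicates 1 and 3 exceeded both others by more than 2-fold for 2.81% and 0.826% of the 605. For adult replicates 2 and 3 it was 1.1% of the 1362 each. Over all tested transcripts the share was larger for each of these libraries, so the excess was confined to larval replicate 2 and adult replicate 1. The 605 and the 1362 were picked by levels in these same wild-type larval and adult libraries. The part of this selection in the shares was not tested. Without larval replicate 2 the fit gave 462 transcripts past 8-fold in larvae, and without adult replicate 1 it gave 992 past 8-fold in adults. The adult count moved most without larval replicate 3, to 2023.

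A transcript was counted as on in a group when each of its 3 libraries had at least 1 CPM, and as off when each had at most 3 counts. Of the 30279 transcripts, 82 (0.271%) were on in adults and off in wild-type larvae, and 3 (0.00991%) were on in larvae and off in adults. All 85 were called by edgeR, which follows from a rule that used the same counts. For 32 of the 82 the larval libraries held 0 counts, and their adult levels were at least 9.04-fold to 336-fold (median 28.3-fold) above the larval floor of 3 counts per library. Of the 82, 75 stayed under 1 CPM in each of the 3 notch3-/- libraries as well, 27 were off there by the same rule, and the highest value was 1.34 CPM.

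The asymmetry of 82 to 3 stood beside unequal depth and detection. Wild-type larval libraries detected 24513, 24684 and 26600 transcripts and adult libraries 27596, 28141 and 28178, with larval replicate 3, the shallowest, highest among the larval ones. Thinned to the 17832652 counts of that library, larval replicates 1 and 2 detected 24128 and 24353 transcripts and the adult libraries 26843 to 27563. A count of 3 was worth 0.093 to 0.155 CPM in a larval library and 0.0535 to 0.0756 CPM in an adult library. The pool of transcripts off in larvae (3734) was also larger than that off in adults (2148), and 1883 were off in both. With all libraries thinned to the same total, 97 transcripts were on in adults alone, 72 of the 82 among them, and 17 in larvae alone, the 3 included. The part of detection in the asymmetry was otherwise not tested. Even counts were also more frequent in larval than in adult libraries. Whether a count of 3 stood for as many read pairs in both groups was not tested. Since the rule asks for every library of a group, leaving out a library could hardly lower the on/off counts. The adult count rose to 190 without larval replicate 3 and to between 91 and 122 without any other library.

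In each direction the 2 on/off transcripts with the highest level are given in full. ENSDART00000134180 (chr1:53208509-53209057, plus strand, a single exon of 549 bp) had 7682, 6727 and 3034 counts in the adult libraries and 0, 0 and 2 in the larval ones. The ratio of the groups was 5050 (95% exact interval 1400 to 41700), the adult level 129.4 ± 70.4 CPM (SD, n = 3) and the adjusted p in edgeR 1.85e-05. The notch3-/- libraries had 0, 22 and 24 counts, so the groups did not overlap with either set of larvae. Such intervals cover counting error only, and they are too narrow where both mates of a pair were counted, since they take every count as independent. ENSDART00000122435 (chr3:908891-911425, plus strand, 7 exons) had 1907, 1698 and 1783 counts in adults and 0 in every wild-type larval library. Its adult level of 38.4 ± 8.55 CPM (SD, n = 3) was at least 336-fold higher than the floor (edgeR adjusted p = 1.37e-05), and the notch3-/- libraries had 4, 2 and 0 counts.

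In larvae, ENSDART00000144190 (chr1:58778029-58789352, plus strand, 9 exons) had 318, 172 and 202 counts against 0, 2 and 0 in adults, a ratio of 598 (95% exact interval 165 to 4950) with an adjusted p of 9.77e-05 in edgeR. The notch3-/- larvae had 665, 313 and 473 counts of it. ENSDART00000126922 (chr16:2094109-2101555, plus strand, 7 exons) had 99, 551 and 29 counts in larvae and 0 in each adult library, at least 115-fold above the adult floor (edgeR adjusted p = 0.0016). Its larval level varied widely between pools, 7.35 ± 8.82 CPM (SD, n = 3), and the notch3-/- libraries had 146, 406 and 2 counts. The remaining larval transcript, outside the naming rule, was a 9-exon transcript on the minus strand of chr1:58792132-58801668, with 50, 166 and 117 counts in larvae and 1, 0 and 0 in adults. Less than 3 kb separates it from the end of ENSDART00000144190, which lies on the opposite strand. No transcript with a read lay between the pair in start order.

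**Figure D3:**
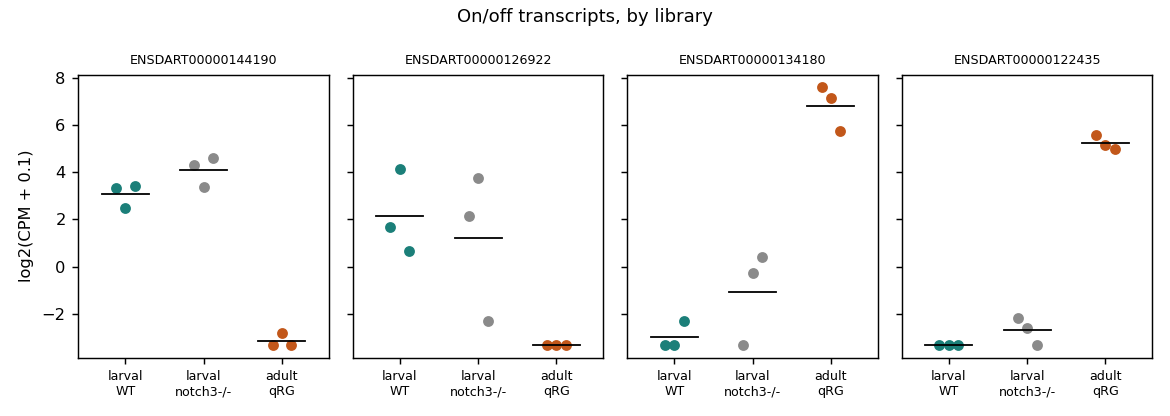
Level of the 4 on/off transcripts with the highest means, as log2(CPM + 0.1), in each larval wild-type, larval notch3-/- and adult qRG library (points), with the mean of each group of 3 (bars). The left pair reads near the floor of the axis in all adult libraries and the right pair in all wild-type larval libraries, while ENSDART00000126922 spans 29 to 551 counts between wild-type larval libraries.

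The 82 adult transcripts were short. Their median exonic length was 886 bp against 1821 bp for the tested transcripts, their median genomic span 3926 bp against 13185 bp and their median number of exons 4 against 7. Of the 82, 5 had a single exon, and 3 of these 5 were 312 bp long. Exons overlapping those of another transcript were annotated for 5 of the 82. Chromosome 1 held 16 of them (1.14% of its transcripts), chromosome 3 held 12 (0.738%) and chromosome 2 held 11 (0.774%), against 0.271% of all transcripts. The others were spread over further chromosomes, and the differences between chromosomes were not tested.

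A stretch of 3 transcripts next to each other among those with a read was on in adults and off in larvae, at chr1:59284766-59324969, and no other stretch of 3 or more met that rule. With a rule added after the data were seen, of at least 4 neighbouring tested transcripts called in the same direction and past 8-fold, 21 stretches with 102 transcripts were higher in adults and 5 stretches with 27 transcripts were higher in larvae, so most of the 1362 and 605 transcripts past 8-fold lay outside them. They lay on 11 chromosomes. How many would arise if the transcripts were in random order was not tested, and neighbours with like sequence may share or lose reads, since only unique alignments were counted.

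A block on chromosome 3 held differences of opposite sign side by side. All 13 tested transcripts between 55942902 and 55999416 have 3 exons and exonic lengths of 530 to 667 bp. All were called, against 28.7% of all tested transcripts. The block consists of stretches picked by the rule above, which set both the calls and the like sign within each stretch. The first 6 were higher in adults, at log2 fold changes of -4.27 to -11.92, and the following 7 were higher in larvae, at 3.83 to 9.44. Summed over the first 6, the adult libraries had 740, 1170 and 684 CPM and the wild-type larval libraries 1.77, 0.063 and 1.71 CPM. Summed over the following 7, the order was reversed, with 238, 404 and 89.2 CPM in larvae and 0.882, 0.938 and 1.19 CPM in adults. The notch3-/- larvae had 0, 0.195 and 0.206 CPM over the first group and 128, 272 and 39.3 CPM over the second. Both groups hold transcripts of both strands, and 4 of the first 6 overlap another transcript in exons, so the counts of these 4 are uncertain.

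**Figure D4:**
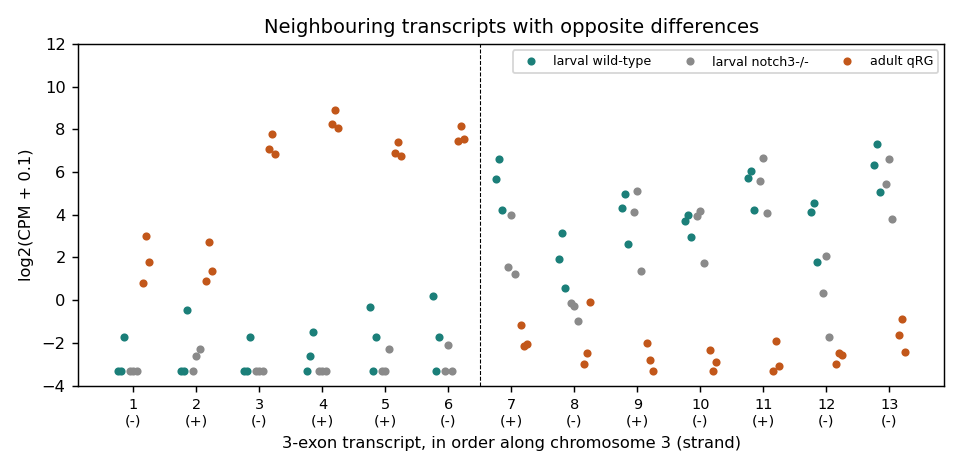
Level, as log2(CPM + 0.1), of 13 neighbouring 3-exon transcripts in order along chromosome 3, in each larval wild-type, larval notch3-/- and adult qRG library, with the strand under each number. The adult points lie above the larval ones for transcripts 1 to 6 and below the wild-type larval ones for transcripts 7 to 13, and the dashed line marks the turn.

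The other larval stretches were as orderly. At chr3:23979150-24040647, 6 plus-strand transcripts, all but 1 of them with 2 exons, summed to 438, 347 and 339 CPM in larvae and 3.63, 5.45 and 19.1 CPM in adults. The highest of them had 305, 246 and 257 CPM in larvae and 0.958, 2.50 and 8.79 CPM in adults. At chr12:28691148-28713865, 4 transcripts with 2 exons each summed to 172, 118 and 96.7 CPM in larvae and 0.908, 2.30 and 3.82 CPM in adults. Exons of 1 of these 4 overlap those of another transcript. At chr3:61763106-61827262, 4 minus-strand transcripts with 5 exons each summed to 611, 1040 and 434 CPM in larvae and at most 3.88 CPM in adults. At chr19:5948856-6004894, 6 minus-strand transcripts summed to 271, 1440 and 210 CPM in larvae and at most 9.43 CPM in adults. The highest of these 6 is among 2 that overlap another transcript in exons, so their counts are uncertain. Within each of these 4 stretches every transcript had the larval libraries above the adult ones. This was largely set by the rule, since 594 of all 605 transcripts past 8-fold in larvae had non-overlapping groups. The spread between larval pools differed, being narrow at the first and wide at the last, where replicate 2 again stood above the others.

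Among the adult stretches, the most abundant was at chr18:7029382-7056956, where 4 plus-strand transcripts with 2 or 3 exons summed to 20900, 13800 and 8600 CPM in adults and 161, 246 and 145 CPM in larvae. One of them, at 7047761-7050665, had the lowest log2 fold change of all tested transcripts (-15.04, SE 0.87, adjusted p = 8.45e-06 by edgeR), with 7537, 4920 and 2659 CPM in adults and 0, 0.254 and 0.207 CPM in larvae. Its neighbour at 7029382-7031332 was as abundant in adults (7766, 4941 and 3517 CPM) but had 154, 200 and 135 CPM in larvae. Neighbours that were alike in adults thus differed in how much of them the larval libraries held. The longest adult stretches had 9 transcripts each, at chr2:51949325-52197526 and chr19:7661253-7767121. All 9 on chromosome 2 lie on the plus strand, with exonic lengths of 548 to 877 bp, and summed to 242, 114 and 113 CPM in adults against 1.68, 1.14 and 1.86 CPM in larvae. Those on chromosome 19 summed to 499, 328 and 236 CPM in adults against 5.83, 5.40 and 4.96 CPM in larvae. Of them, 3 overlap another transcript in exons, so the counts of these 3 are uncertain.

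By chromosome, the share of tested transcripts called past 8-fold in adults ran from 2.59% on chromosome 12 to 11.1% on chromosome 3, around 5.48% overall. The share past 8-fold in larvae ran from 1.05% on chromosome 4 to 3.85% on chromosome 16, around 2.43% overall. Chromosome 12 was the single nuclear chromosome with more transcripts past 8-fold in larvae (32) than in adults (23). On chromosome 4, 106 of its 1328 tested transcripts were called higher in larvae (7.98%) and 213 in adults (16.0%). The shares over all tested transcripts were 13.9% and 14.8%, so its adult share was near that of all and its larval share was lower. The median log2 fold change of chromosome 4 was -0.59 against -0.17 over all tested transcripts. Of its 2450 transcripts, 1328 had enough counts to be tested.

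**Figure D5:**
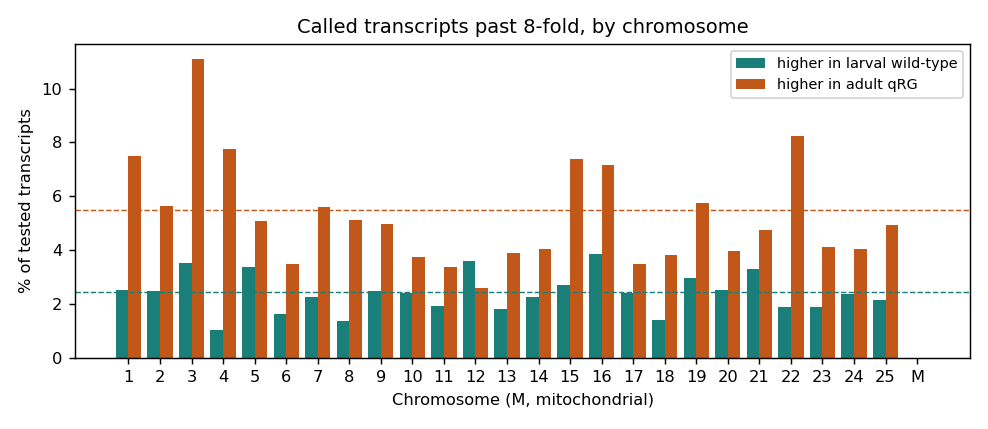
Share of the tested transcripts of each chromosome that were called and past 8-fold, higher in larval wild-type or in adult qRG libraries, with dashed lines at the shares over all tested transcripts (2.43% and 5.48%). Chromosome 3 has the highest adult share (11.1%), and no mitochondrial (M) transcript passed 8-fold.

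The mitochondrial genome encodes subunits of the respiratory chain. Of its 13 transcripts in the tables, 1 was called, at chrM:8894-9058, with a log2 fold change of -1.14 (SE 0.24, edgeR adjusted p = 0.0055). Over all tested transcripts 28.7% were called. The called transcript is 165 bp long and, like several of the others, overlaps another in exons, so its count is uncertain. The other mitochondrial transcripts had log2 fold changes of -0.35 to 0.75 and edgeR adjusted p-values of 0.0599 or more. All 13 together took 3.42% to 4.77% of the counts of a wild-type larval library and 3.68% to 3.90% of those of an adult library.

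Transcripts spanning under 10 kb passed 8-fold in 4.01% (larvae) and 7.69% (adults) of cases, and those spanning 50 to 200 kb in 0.915% and 2.13%. The shares over all tested transcripts were 2.43% and 5.48% past 8-fold, and 13.9% and 14.8% for calls of any size. Of 392 tested transcripts spanning 200 kb or more, 82 were higher in larvae (20.9%) and 35 in adults (8.93%), with a median log2 fold change of 0.28. Past 8-fold the directions were even, with 5 transcripts (1.28%) in each. Relative to all tested transcripts their median was 0.54, 0.34 and 0.38 higher in larval replicates 1, 2 and 3, each taken against the adult mean as log2(CPM + 0.5). Of 1077 tested single-exon transcripts, 10.6% were higher in larvae and 12.6% in adults, and 3.53% and 7.52% passed 8-fold. Over 10 bins of exonic length the median log2 fold change ran from -0.25 to -0.02.

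Direction also varied with level. In the lowest of 10 bins of tested transcripts by mean level (0.166 to 0.569 CPM), 0.201% were higher in larvae and 4.91% in adults, with a median log2 fold change of -0.86. In the highest bin (82.1 CPM and above), 34.1% were higher in larvae and 25.0% in adults, with a median of 0.27, and 1016 of its 2487 transcripts were not called. The bins were formed from the same group means that enter the fold changes. At the lowest levels a transcript can pass the filter on counts through a single group, and the adult libraries were deeper and spread less. The part of filter, depth and spread in these directions was not tested. By CPM per kilobase of exon (RPKM), 45 of the 100 most abundant transcripts of each group were shared. Of the 100 most abundant in larvae, 81 were higher there and 3 in adults. Of the 100 most abundant in adults, 50 were higher there and 28 in larvae. Each list was picked by the level in its own group, which favours calls in that direction. Over all tested transcripts, 13.9% were higher in larvae and 14.8% in adults. The 28 and the 3 all lie among the 45 shared transcripts. In sorted pools, fewer cells of a type and less RNA per cell cannot be told apart.

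With the notch3-/- larvae in place of the wild-type ones, against the same adult libraries, 7222 transcripts were called, 3504 higher in larvae and 3718 higher in adults, and 2 and 60 were on in a single group. As both fits share the adult libraries, these counts are given side by side only.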

How the data were processed

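The authors aligned paired reads to Zv9 with TopHat2, using Ensembl release 78, kept unique alignments with samtools, and deposited raw read counts per transcript. The methods name HTSeq as the counter, but the file headers name featureCounts 1.5.0 with no option for pairs or strand, under which each mate counts as 1 read. The headers were followed. Of the non-zero counts, 67.1% to 73.8% were even in larval wild-type libraries and 52.8% to 54.7% in adult ones. Even counts were thus the more frequent in larvae, and whether a count stands for the same unit in both groups was not tested. The larval and adult tables were joined on the transcript identifier. The qRG columns were taken by name. The 6 other adult columns of per-sample values stayed out, since their names matched no single cell type of the labels.

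Counts of 6 libraries were scaled by TMM, filtered with filterByExpr and tested by quasi-likelihood in edgeR 4.0.16 under R 4.3.3, with Benjamini-Hochberg adjustment at 0.05. Each SE was derived from the test, as the absolute log2 fold change over the square root of its F statistic, and is not an estimate given by edgeR. The procedure was tested on simulated data. These were drawn with the same spread in both groups, whereas the larval libraries here spread more widely than the adult ones. The simulation therefore cannot vouch for the number of calls. The replicate number was no block, as same-numbered libraries did not deviate together (correlations -0.02, -0.02 and 0.06). DESeq2 1.42.0 and other scalings, filters and thresholds served as alternatives. Members and lists were chosen with earlier results of these data known. The text names, in each direction, the 2 on/off transcripts with the highest mean CPM among those called. Marker lists and gene names were not used, since 0 identifiers matched.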

Additional observations from a re-analysis of the deposited data

How the results depend on the processing

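The side with more calls turned to larvae under the size factors of DESeq2 (3623 higher in larvae, 3489 in adults), the upper quartile (3674 and 3400) and a filter at 10 counts in total (3560 and 3556), and without larval or adult replicate 1. No alternative changed the direction of a named transcript or the sign of a median, and the 4 named transcripts stayed called in every fit that tested them, with ENSDART00000126922 not tested against the notch3-/- larvae. Other scalings, filters and depths left the number of calls within 1.5 times of 7135. Stricter criteria gave fewer: 4187 at an adjusted p under 0.01 (2051 higher in larvae, 2136 in adults, with 12 adult stretches of neighbours) and 3290 in a test against a 2-fold change (1364 and 1926). DESeq2 called 8313. The libraries share replicate numbers but were not paired, and with the replicate block 6015 were called, 5880 of them among the 7135, with 3 larval stretches and a chromosome 4 median of -0.56 relative to all. Without a filter there were 3 larval stretches and that median was -0.32. With notch3-/- larvae, transcripts spanning 200 kb or more had a median 0.63 above that of all, against 0.45.

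The on/off counts moved most. Transcripts on in larvae and in adults numbered 1 and 17 at 5 CPM for on, 1 and 32 at 0 counts for off, 19 and 274 at up to 10 counts for off, and 6 and 129 at 1 RPKM for on. Thinning gave 17 in larvae. Adult transcripts numbered 51 with off set under 0.1 CPM and 27 with off required in notch3-/- larvae as well, both chosen after seeing the data.

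Leaving out each library in turn gave 5176 to 7146 calls (2510 to 3333 higher in larvae, 2572 to 3813 in adults), 462 to 733 and 992 to 2023 past 8-fold, 3 to 8 and 91 to 190 on/off transcripts, and 2 to 5 and 14 to 28 stretches. The on/off counts could hardly fall here, since the rule asks for every library of a group. The larval on/off count was 8 without larval replicate 1 or adult replicate 3, 6 without adult replicate 2, and 5 without larval replicate 2 or adult replicate 1. Larval stretches numbered 3 without larval or adult replicate 1 and 2 without larval or adult replicate 2. The relative median ranged from 0.38 to 0.55 for spans of 200 kb or more and from -0.48 to -0.34 for chromosome 4.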
